A study of Homo sapiens with 9 samples.

Results

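The 5 genes described here are ZNF566-AS1, PCP4, LINC02447, UGT2B7 and ZBTB7C-AS2. They were picked by name, out of 18132 measured genes, as large rises in Y79 cells given an HDM2 peptide on gold nanoparticles, with the heat shock, metal and other stress genes left aside. They are read by 6 of the 49293 probe sets on the array: ZNF566-AS1 has 2 of its own and each other gene has 1. ZNF566-AS1, LINC02447 and ZBTB7C-AS2 are long noncoding RNAs, and PCP4 and UGT2B7 code for proteins. Because the difference between conjugate and untreated cells picked these genes, that difference is given for them as a description, with no test.

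Y79 is a human retinoblastoma cell line, a tumour of the developing retina that has lost the RB1 tumour suppressor, grown here in RPMI medium. Some of the labels spell the line Y97. HDM2 is the human MDM2 protein, which binds the tumour suppressor p53 and marks it for breakdown. Total RNA was measured on 9 Affymetrix arrays in 3 groups of 3: cells given the gold nanoparticle and HDM2 peptide conjugate (GNPs-HDM2), cells given bare gold nanoparticles (GNPs), and untreated cells (Control). The labels give no dose or exposure time and do not say whether the arrays come from separate cultures. A p-value here therefore speaks only for the spread among these 9 arrays, which may be technical. Since each array averages many cells, fewer cells of a kind and less RNA per cell cannot be told apart.

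Long noncoding RNAs are transcripts that carry no protein code, and an antisense RNA is read from the strand opposite to a named gene, often from a start site that it nearly shares with that gene. PCP4, also called PEP-19, is a small protein that binds calmodulin, the calcium sensor of cells, and speeds its exchange of calcium. It is best known from the Purkinje cells of the cerebellum. UGT2B7 is an enzyme of the endoplasmic reticulum, made mainly in liver, kidney and gut, that joins glucuronic acid to drugs such as morphine, to steroids and to bile acids so that they can be excreted.

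The deposited values have no absolute level. Each is on a log scale, taken as base 2, relative to a baseline of its own probe set, so 0 means the baseline and levels cannot be set against each other between genes. The conjugate arrays stood apart from the other arrays over the whole table. The SD over all probe sets was 1.25, 1.49 and 0.645 on GNPs-HDM2 arrays 1, 2 and 3, against 0.277 to 0.318 on GNPs arrays and 0.241 to 0.361 on Control arrays. Probe sets were sorted by the level of their baseline, read from the step size of the stored numbers, into 14668 dim, 24738 middle and 9460 bright ones. Between GNPs-HDM2 and Control arrays the dim probe sets had a median difference of 0.50, the middle ones of 0.17 and the bright ones of -1.12. The mean of 18 hybridization control probe sets, which read RNA added at a set amount during labelling and hybridization, was also higher with the conjugate (1.33 to 1.88 on GNPs-HDM2 arrays, against -0.54 to 0.15 on GNPs arrays and -0.43 to -0.32 on Control arrays). These shifts moved with every conjugate difference given here, and their part in those differences was not tested.

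In GNPs-HDM2 cells all 5 genes lay above both other groups, with no overlap on any of the 6 probe sets. Of all genes, 36% had their 3 GNPs-HDM2 arrays above the 3 Control arrays, and 45.9% had them above the 3 GNPs arrays. Nothing is read from these shares, because the conjugate arrays were used in picking the genes. The narrowest gap between the lowest GNPs-HDM2 array and the highest other array was 0.74, for ZBTB7C-AS2, and the widest was 3.16, for the first of the ZNF566-AS1 probe sets.

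**Figure D1:**
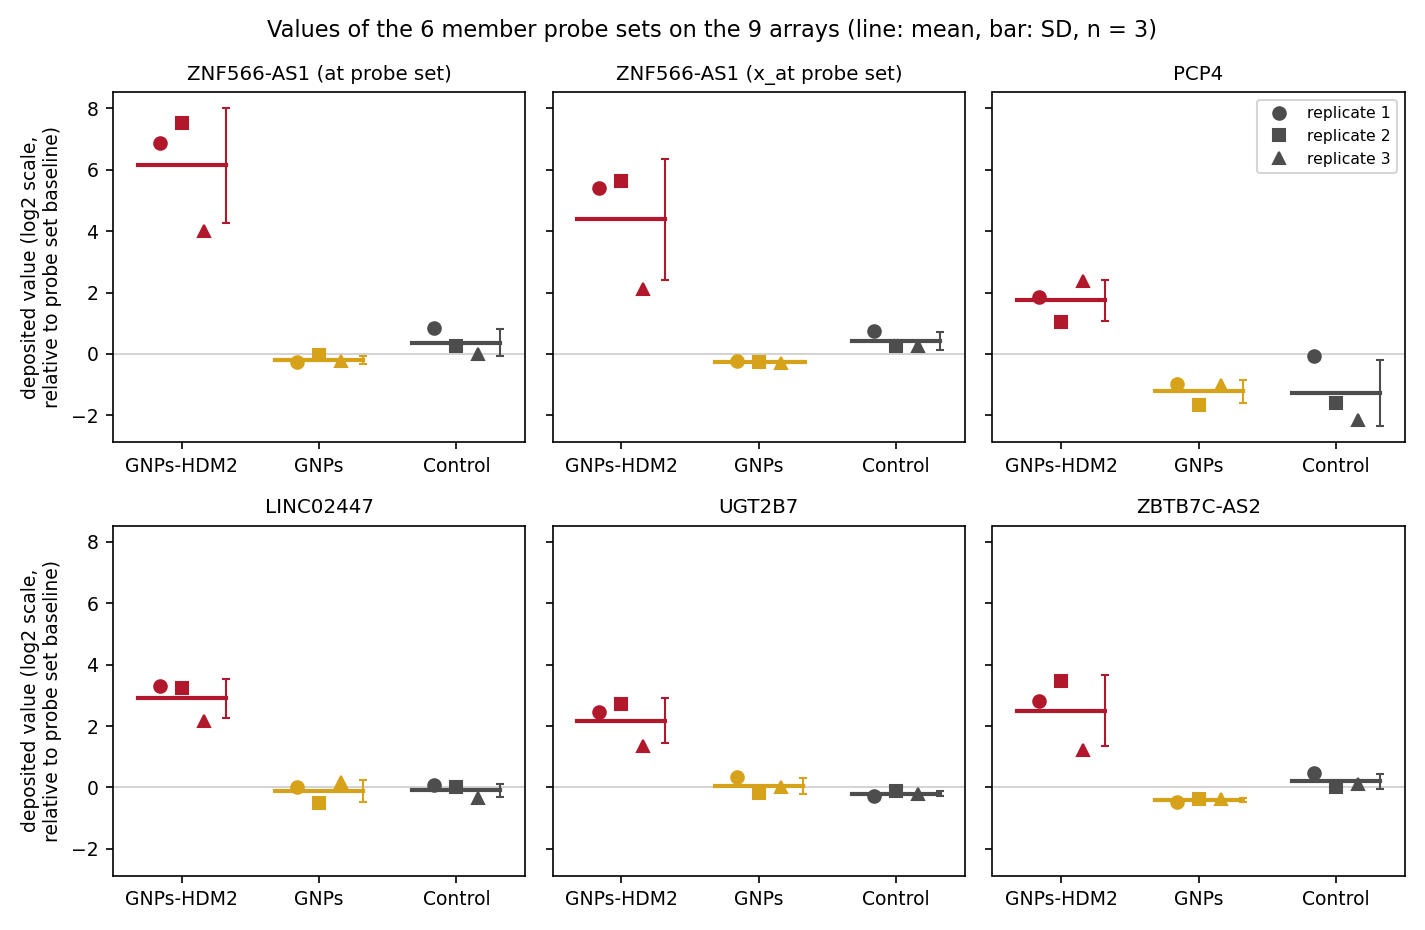
Deposited values (log2 scale, relative to each probe set's baseline) of the 6 probe sets on the 9 arrays, with GNPs-HDM2 left, GNPs in the middle and Control right; points are arrays, lines the group means and bars the SD (n = 3). In all 6 panels the GNPs-HDM2 arrays lie above the 6 others, and in 5 of them GNPs-HDM2 replicate 3 is the lowest of its group, PCP4 being the exception.

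ZNF566-AS1 had the largest rise of all 18132 genes. It lies at chr19:36489627-36491040 on the plus strand (GRCh38.p14), in a cluster of zinc finger genes, and is read away from ZNF566, which codes for a zinc finger protein of the KRAB class, a large family of DNA-binding repressors. The _at probe set of ZNF566-AS1 stood at 6.87, 7.52 and 4.0 on the GNPs-HDM2 arrays, at -0.28, -0.04 and -0.24 on the GNPs arrays and at 0.85, 0.26 and 0.00 on the Control arrays. The x_at probe set, a type whose probes may also match other transcripts, stood at 5.40, 5.63 and 2.11 on the GNPs-HDM2 arrays, at -0.23, -0.25 and -0.28 on the GNPs arrays and at 0.75, 0.25 and 0.27 on the Control arrays. Both probe sets were made from the same transcript record. They gave the same order of groups and the same low GNPs-HDM2 array, replicate 3.

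The 2 probe sets of ZNF566-AS1 differed in size. The GNPs-HDM2 minus Control difference was 5.76 (SE 0.72, a 54.3-fold change) for the _at set and 3.96 (SE 0.74, a 15.5-fold change) for the x_at set. The _at value exceeded the x_at value by 1.47, 1.89 and 1.90 on the GNPs-HDM2 arrays, by -0.05 to 0.21 on the GNPs arrays and by -0.27 to 0.09 on the Control arrays. The gap between the probe sets was thus nearly the same on GNPs-HDM2 arrays 2 and 3, although the values themselves differed by more than 3 log2 units between those arrays. Averaged over its probe sets, ZNF566-AS1 stood at 5.26 ± 1.92 in GNPs-HDM2 cells, at -0.22 ± 0.06 in GNPs cells and at 0.40 ± 0.36 in Control cells (SD, n = 3 each). That is 4.86 above Control (SE 0.73, 29.1-fold) and 5.48 above GNPs (SE 0.73, 44.5-fold).

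The start of ZNF566-AS1 faces the start of ZNF566. By RefSeq, the ZNF566 start nearest to it lies at position 36489561 on the minus strand, 66 bases away, with 65 bases between them, and a further ZNF566 start lies at position 36489435. The stretch between both starts is shown because the 2 transcripts leave it in opposite directions. It is chr19:36489562-36489676, plus strand, from the RefSeq promoter table of GRCh38.p14, with the bases between the starts in capitals.
ZNF566-AS1 start: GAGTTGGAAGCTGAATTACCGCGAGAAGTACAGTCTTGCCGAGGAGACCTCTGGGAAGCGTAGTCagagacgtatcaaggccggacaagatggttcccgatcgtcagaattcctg

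Over the 300 bases from 250 before to 50 after its start, the ZNF566-AS1 promoter window held 60.7% GC, against a median of 58.7% over 35114 RefSeq promoters, and 22 CpG dinucleotides. Of the motifs searched on both strands, it held 1 GC box (GGGCGG, found in 45% of all promoters) at -176 to -171. It also held 1 antioxidant response element (TGACNNNGC, found in 13.3% of all promoters), at -8 to 1. A match is a description of the letters and not a measured binding site.

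ZNF566 itself was lower in the conjugate arrays. Its dim probe set stood at -0.59, -0.16 and -0.80 on the GNPs-HDM2 arrays, at 0.02, 0.26 and 0.69 on the GNPs arrays and at -0.28, -0.22 and 0.18 on the Control arrays. Its middle probe set stood at -1.01, -1.12 and 0.00 on the GNPs-HDM2 arrays, at 0.63, 0.20 and 0.43 on the GNPs arrays and at -0.33, 0.08 and 0.23 on the Control arrays. Each probe set overlapped between GNPs-HDM2 and Control, and neither passed alone (-0.41, limma adjusted p = 0.190, and -0.70, limma adjusted p = 0.079). The mean of both fell by 0.55 against Control (SE 0.19, limma adjusted p = 0.0295). That call was lost without Control replicate 2 or 3 or GNPs-HDM2 replicate 1 or 2, where the adjusted p reached up to 0.107. After centring within level classes the difference was -0.85 (limma adjusted p = 0.0091).

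Among 104 antisense genes whose sense gene was also measured, the difference between antisense and sense change was widest for ZNF566-AS1 and ZNF566, at 5.41. The other 102 pairs without ZNF566-AS1 and ZBTB7C-AS2 ran from -1.45 to 2.98 with a median of 0.46, and in 70 of them the antisense gene lay above its sense gene. The rank of ZNF566-AS1 here follows in large part from the way it was picked.

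Zinc finger genes of the 19q13 region around ZNF566-AS1 were called in both directions. Of 17 measured, 5 rose, 5 fell and 7 did not pass, where 33.1% of all genes rose and 25.1% fell. Their median was -0.25, against 0.25 over all genes. After centring within level classes 1 rose and 7 fell, and after quantile normalization 1 rose and 1 fell. ZFP14 rose by 0.78 (SE 0.21, limma adjusted p = 0.0132) and ZNF829 by 0.70, while ZNF146, a gene for a protein made only of zinc fingers, fell by 2.69 (SE 0.54, limma adjusted p = 0.0045) and ZNF420 fell by 1.0. These 4 calls held in each of the 9 fits that left out 1 array. The dim ZNF829 lost its call after centring within level classes (0.22, limma adjusted p = 0.212), and ZNF829 and ZNF420 lost theirs after quantile normalization. ZNF461 rose by 0.56 and ZNF567 fell by 1.33. Both calls were lost without Control replicate 1 or 2 or GNPs-HDM2 replicate 1 or 2, and that of ZNF461 also without Control replicate 3 (adjusted p up to 0.0682 for ZNF461 and 0.0895 for ZNF567). ZNF461 stood at 0.08 after centring within level classes (limma adjusted p = 0.577), and neither passed after quantile normalization. The median turned to 0.09 after quantile normalization and stayed below 0 under median centring (-0.42) and level class centring (-0.37).

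PCP4 lies at chr21:39867438-39929392 (GRCh38.p14). Its probe set stood at 1.85, 1.04 and 2.36 on the GNPs-HDM2 arrays, at -0.99, -1.67 and -1.0 on the GNPs arrays and at -0.06, -1.61 and -2.14 on the Control arrays. The Control arrays were spread more widely than those of any other gene of the 5, with Control replicate 1 well above the other two, and GNPs-HDM2 replicate 3 was the highest of its group. PCP4 averaged 1.75 ± 0.67 in GNPs-HDM2 cells, -1.22 ± 0.39 in GNPs cells and -1.27 ± 1.08 in Control cells (SD, n = 3 each). The difference was 3.02 above Control (SE 0.50, 8.14-fold) and 2.97 above GNPs. The difference from Control was 3.63 without Control replicate 1, 2.85 without Control replicate 2 and 2.59 without Control replicate 3.

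The calcium and calmodulin genes were called in both directions, as genes were over the whole table. Of 26 measured, 10 rose, 5 fell and 11 did not pass, where 33.1% of all genes rose and 25.1% fell. The median was 0.25, the same as over all genes to 2 decimals. After quantile normalization 2 rose and 3 fell. The rises included ADCY8, a calmodulin-driven adenylyl cyclase (1.29, SE 0.21, limma adjusted p = 0.0026), the calmodulin-like gene CALML3 (1.13, SE 0.24) and the calmodulin-dependent phosphodiesterase PDE1B (1.0, SE 0.25). All 5 falls held in each fit that left out 1 array. They included 3 of the subunits of calcineurin, the calmodulin-driven phosphatase, among them PPP3R1 (-1.68, SE 0.15, limma adjusted p = 3.9e-04) and PPP3CA (-1.60, SE 0.28), and the kinase gene CAMK2D (-1.35, SE 0.27). After quantile normalization ADCY8 and PPP3R1 kept their calls. CALML3, PDE1B and PPP3CA lost theirs under that scaling (limma adjusted p = 0.166, 0.180 and 0.597). PCP4L1, the closest relative of PCP4, stood at 0.37, 1.39 and 0.48 on the GNPs-HDM2 arrays, at -0.20, -0.05 and -0.31 on the GNPs arrays and at 0.22, 0.12 and -0.11 on the Control arrays. Its 3 GNPs-HDM2 arrays lay above the other 6. Its only probe set did not pass in the fit of single probe sets (limma adjusted p = 0.062). In the fit of genes PCP4L1 passed narrowly (0.67, SE 0.25, limma adjusted p = 0.045). PCP4L1 lost that call without any of the Control or GNPs arrays or GNPs-HDM2 replicate 2, with an adjusted p of up to 0.135, and stood at 0.19 after centring within level classes.

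Markers of cells known for PCP4 were measured beside it. Of 9 measured Purkinje and horizontal cell genes, 4 rose, 1 fell and 4 did not pass, where 33.1% of all genes rose and 25.1% fell. The counts were 2 higher and 2 lower after centring within level classes, and 0 higher and 1 lower after quantile normalization. PCP2, another Purkinje cell protein, rose by 1.21 (SE 0.25, limma adjusted p = 0.0048), LHX1 rose by 0.83 and ONECUT1 by 0.85, and ONECUT2 fell by 1.60. These calls held in each fit that left out 1 array. The dim ONECUT1 lost its call after centring within level classes (0.36, limma adjusted p = 0.0633), and all 3 of these rises lost theirs after quantile normalization. The summed value of the 9 genes was 1.52 to 4.14 on GNPs-HDM2 arrays, -0.65 to -0.15 on GNPs arrays and -0.34 to 0.40 on Control arrays, and 3 of the 9 genes had dim probe sets only. The 10 photoreceptor genes, which Y79 cells are known to express, were mostly bright (6 of the 10 with a bright probe set), and 5 of them fell and none rose, where 25.1% of all genes fell. Of all bright probe sets 58.3% fell. The counts were 1 higher and 5 lower after centring within level classes, and 0 higher and 5 lower after quantile normalization. RBP3, the retinoid carrier of the photoreceptor matrix, fell by 3.95, THRB by 0.86 and the cone transducin gene GNAT2 by 2.23. Their summed value was -10.0 to 0.80 on GNPs-HDM2 arrays, 7.65 to 8.33 on GNPs arrays and 3.76 to 8.96 on Control arrays. The part of these markers in the PCP4 values was not tested.

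LINC02447 lies at chr4:7097424-7103376 (GRCh38.p14), between protein-coding genes, and no role is stated for it here. Its probe set stood at 3.30, 3.25 and 2.18 on the GNPs-HDM2 arrays, at 0.00, -0.52 and 0.17 on the GNPs arrays and at 0.07, 0.00 and -0.33 on the Control arrays. The GNPs and Control arrays overlapped, and the 3 GNPs-HDM2 arrays lay at least 2.01 above all of them. LINC02447 averaged 2.91 ± 0.64 in GNPs-HDM2 cells, -0.12 ± 0.36 in GNPs cells and -0.09 ± 0.21 in Control cells (SD, n = 3 each). The difference was 3.0 above Control (SE 0.31, 7.98-fold) and 3.03 above GNPs.

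The LINC02447 promoter stands out among the 3 that the RefSeq table of GRCh38.p14 holds for these genes, and is shown for its run of GC boxes. It covers chr4:7103327-7103626, minus strand, from 250 bases before the start to 50 after it, with each GGGCGG in capitals.
LINC02447 promoter: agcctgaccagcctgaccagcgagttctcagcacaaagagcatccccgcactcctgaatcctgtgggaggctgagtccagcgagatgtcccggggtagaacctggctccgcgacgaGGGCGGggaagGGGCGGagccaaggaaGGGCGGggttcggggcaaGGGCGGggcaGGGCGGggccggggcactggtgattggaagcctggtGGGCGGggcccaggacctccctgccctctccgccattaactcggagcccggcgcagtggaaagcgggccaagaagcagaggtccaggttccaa

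The window held 6 GC boxes, between -134 and -38, and 20 CpG dinucleotides. Its GC content of 68% was higher than that of 74.8% of all promoters. It also held 1 match, at -22 to -16, to TGCNCNC, a loose pattern searched for the metal response element. That pattern is found in 55.9% of all promoters, so the match does not mark a metal response element. The UGT2B7 window is shown beside it as the opposite case, with 35% GC and no CpG dinucleotide, and only 4.3% of all promoters held less GC. The bases before the start of the RefSeq promoter entry are chr4:69096224-69096473, plus strand. None is in capitals because none of the searched letter patterns was found. This start lies inside the UGT2B7 span of chr4:69051375-69112987, and the beginning of that span was not examined.
UGT2B7 upstream: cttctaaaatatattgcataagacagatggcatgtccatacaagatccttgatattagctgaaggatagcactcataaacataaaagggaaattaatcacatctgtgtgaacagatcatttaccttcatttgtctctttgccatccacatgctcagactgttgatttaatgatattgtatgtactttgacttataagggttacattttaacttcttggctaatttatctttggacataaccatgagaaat

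The motifs without a match in any of the 3 windows were the TATA box (TATAAA), both phases of the heat shock element (GAANNTTC and TTCNNGAA), the AP-1 site (TGANTCA), the cyclic AMP response element (TGACGTCA), the E-box (CACGTG), the HNF1 site and the p53 half-site. Over all promoters their shares were 11.5%, 6.77%, 7.74%, 7.71%, 1.85%, 7.26%, 0.0057% and 6.63%, in that order. No match says only that the searched letters are not in these windows. The HNF1 pattern searched was so strict that no more than 0.0057% of all promoters held it. Its absence would hold for almost any promoter and says nothing about looser HNF1 sites, which were not searched.

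UGT2B7 lies at chr4:69051375-69112987 (GRCh38.p14), inside the cluster of UGT2 genes. Its only probe set is dim. It stood at 2.46, 2.71 and 1.34 on the GNPs-HDM2 arrays, at 0.33, -0.18 and 0.00 on the GNPs arrays and at -0.27, -0.12 and -0.21 on the Control arrays. GNPs-HDM2 replicate 3 was again the lowest of its group, 1.01 above the highest of the other 6 arrays. UGT2B7 averaged 2.17 ± 0.73 in GNPs-HDM2 cells, 0.05 ± 0.26 in GNPs cells and -0.20 ± 0.08 in Control cells (SD, n = 3 each). The difference was 2.37 above Control (SE 0.31, 5.17-fold) and 2.12 above GNPs. Dim probe sets as a class were higher with the conjugate, and after centring within level classes the UGT2B7 difference was 1.88.

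The nearest relatives of UGT2B7 gave smaller values, and their direction depended in part on the scaling. The smaller size follows in large part from picking UGT2B7 as a large rise. UGT2B28, which lies next but one to it, stood at 1.16, 1.49 and 1.46 on the GNPs-HDM2 arrays, at 1.0, -0.02 and 0.00 on the GNPs arrays and at -0.22, 0.11 and -0.01 on the Control arrays. GNPs replicate 1 came close to the GNPs-HDM2 arrays. UGT2B28 rose by 1.41 (SE 0.27, limma adjusted p = 0.0038), and the call held in each fit that left out 1 array and after centring within level classes (0.93). UGT2B15 rose by 0.74 (SE 0.24, limma adjusted p = 0.0267) and UGT2B10 by 0.79 (SE 0.29, limma adjusted p = 0.0392). In the fit of single probe sets, the only probe set of UGT2B10 alone did not pass (limma adjusted p = 0.052). UGT2B15 lost its call without any of the 3 Control arrays or GNPs-HDM2 replicate 1 or 2 (adjusted p up to 0.0818), and UGT2B10 without any of the 3 Control or 3 GNPs arrays (adjusted p up to 0.0939). UGT2B4 stood at 0.41 (limma adjusted p = 0.0503) and UGT2B11 at 0.26 (limma adjusted p = 0.178), and neither passed. After centring within level classes UGT2B15 stood at 0.40 (limma adjusted p = 0.082) and UGT2B10 at 0.31 (limma adjusted p = 0.271). UGT2B11 turned to -0.23 and UGT2B4 to -0.08 under that centring, so that UGT2B28 alone of these genes kept a call. Over the 11 probe sets of UGT2B genes other than UGT2B7, which include some shared by 2 genes, 3 rose and none fell, and the differences ran from 0.26 to 1.41. Most of the 11 are dim, and of all dim probe sets 33.6% rose and 0.81% fell. The UGT2B genes are close copies of each other, so signal from a related gene on these probes cannot be told apart from their own.

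Genes of the wider glucuronidation pathway were called in both directions, at shares near those over all genes. Of 14 measured genes other than UGT2B7, 5 rose, 3 fell and 6 did not pass, where 33.1% of all genes rose and 25.1% fell. Their median was 0.26, against 0.25 over all genes. After centring within level classes 2 rose and 1 fell, and 2 of the 5 rises held in each fit that left out 1 array. The rises were of transferases, among them UGT3A2 (0.86, SE 0.21, limma adjusted p = 0.0088). The falls were of UGP2, which makes UDP-glucose (-1.51, SE 0.38, limma adjusted p = 0.0098), of UGDH, which turns UDP-glucose into the UDP-glucuronic acid that UGT2B7 uses (-0.98, SE 0.18, limma adjusted p = 0.0033), and of GUSB, which removes glucuronic acid (-0.82, SE 0.30, limma adjusted p = 0.0400). UGP2 and UGDH kept their calls in each fit that left out 1 array. UGP2 lost its call after centring within level classes (-0.43, limma adjusted p = 0.0662). GUSB lost its call in 8 of the 9 fits that left out 1 array, all but the fit without GNPs-HDM2 replicate 3, with an adjusted p of up to 0.124, and turned to 0.26 after centring within level classes. UGP2 and GUSB are read by bright probe sets only and most UGT2B probe sets are dim, so the rises and falls also differ in level class. No gene of the list passed after quantile normalization.

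Factors known to act on UGT2B7 in liver and gut were mixed. Of 6 measured, 3 rose, 2 fell and 1 did not pass, where 33.1% of all genes rose and 25.1% fell. After quantile normalization AHR and NFE2L2 kept their calls and the other 3 lost them. AHR, the receptor for dioxins, rose by 0.84 (SE 0.20, limma adjusted p = 0.0091), the gut factor CDX2 rose by 0.82 (SE 0.24, limma adjusted p = 0.0176), and NFE2L2, which codes for the oxidative stress factor NRF2, fell by 2.25 (SE 0.31, limma adjusted p = 0.0015). CDX2 lost its call without Control replicate 3 (adjusted p = 0.0602). The nuclear receptor gene NR1I3 rose by 0.49 and the liver factor FOXA1 fell by 0.54. FOXA1 lost its call without Control replicate 2 or 3 (adjusted p up to 0.0684), and NR1I3 without any Control array, GNPs-HDM2 replicate 1 or 2 or GNPs replicate 3 (adjusted p up to 0.0966). NR1I3 stood at 0.08 after centring within level classes (limma adjusted p = 0.594) and did not pass after median centring either. Of 10 liver and gut genes, 7 rose and none fell, where 33.1% of all genes rose. The 7 rises became 3 after median centring or centring within level classes and 0 after quantile normalization. Their median was 0.53 and became 0.15 after centring within level classes. APOA1 rose by 0.65 and was the only one of the 7 to hold its call in all 9 fits that left out 1 array. The thyroid hormone carrier TTR rose by 0.91 and the drug-oxidizing enzyme CYP3A4 by 1.09, and both calls were lost without Control replicate 3 or GNPs-HDM2 replicate 1 (adjusted p up to 0.0541 and 0.0575). The summed value of the 10 genes was 2.40 to 7.80 on GNPs-HDM2 arrays, -1.31 to -0.49 on GNPs arrays and -0.35 to 0.66 on Control arrays, 6 of the 10 had dim probe sets only, and the part of these values in the UGT2B7 rise was not tested.

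ZBTB7C-AS2 lies at chr18:48252301-48252837 (GRCh38.p14), inside the span of ZBTB7C, a gene for a zinc finger transcription factor with a POZ domain. Its probe set stood at 2.82, 3.47 and 1.22 on the GNPs-HDM2 arrays, at -0.48, -0.36 and -0.36 on the GNPs arrays and at 0.48, 0.00 and 0.12 on the Control arrays. The GNPs-HDM2 arrays differed among themselves by more than 2 log2 units, and the GNPs arrays all lay below the Control arrays. ZBTB7C-AS2 averaged 2.50 ± 1.15 in GNPs-HDM2 cells, -0.40 ± 0.06 in GNPs cells and 0.20 ± 0.25 in Control cells (SD, n = 3 each). The difference was 2.30 above Control (SE 0.45, 4.93-fold) and 2.90 above GNPs. It was 2.94 above Control without GNPs-HDM2 replicate 3 and 1.40 after quantile normalization.

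ZBTB7C, unlike ZNF566, rose along with its antisense gene. Its 4 probe sets were 1.32, 0.53, 0.68 and 0.84 higher in GNPs-HDM2 than in Control arrays, and 3 of them passed alone (limma adjusted p = 0.016, 0.032 and 0.038). The 0.53 set did not pass (limma adjusted p = 0.078). All 4 are middle probe sets, a class of which 26.4% rose. The mean of the 4 rose by 0.84 (SE 0.23, limma adjusted p = 0.0133), held its call in each fit that left out 1 array, and stood at 0.74 after centring within level classes. The antisense gene changed by 1.46 more than ZBTB7C, which is rank 23 of the 104 antisense and sense pairs. The related genes ZBTB7B (1.14, SE 0.23, limma adjusted p = 0.0044) and ZBTB7A (0.70, SE 0.16, limma adjusted p = 0.0079) rose too. All 3 measured ZBTB7 genes thus rose, where 33.1% of all genes rose. ZBTB7A no longer passed after centring within level classes (0.31, limma adjusted p = 0.0556), and none of the 3 passed after quantile normalization.

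The bare particles gave no such rise. Among the 5 genes, none passed between GNPs and Control arrays, where limma called 4 of 18132 genes higher (0.0221%) and none lower (0%). The difference was -0.62 for ZNF566-AS1 (SE 0.73, limma adjusted p = 0.891), 0.05 for PCP4 (SE 0.50, limma adjusted p = 0.986), -0.03 for LINC02447 (SE 0.31, limma adjusted p = 0.985), 0.25 for UGT2B7 (SE 0.31, limma adjusted p = 0.892) and -0.60 for ZBTB7C-AS2 (SE 0.45, limma adjusted p = 0.864). A range of 2 SE to each side ran from -2.07 to 0.84 for ZNF566-AS1, from -0.96 to 1.06 for PCP4, from -0.65 to 0.58 for LINC02447, from -0.37 to 0.88 for UGT2B7 and from -1.51 to 0.30 for ZBTB7C-AS2. A p above the threshold does not show equal levels. Changes inside these ranges remain possible with 3 arrays a group, and the ranges are not limits of detection. The spread used in them is shared by the 3 groups.

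For ZNF566-AS1 and ZBTB7C-AS2 the GNPs arrays all lay below the Control arrays, a pattern that 21.5% of all genes showed. None of the 5 had all GNPs arrays above the Control arrays, which 12.4% of all genes showed. After quantile normalization both antisense genes passed as lower with bare particles, ZNF566-AS1 at -1.20 (limma adjusted p = 0.0172) and ZBTB7C-AS2 at -1.42 (limma adjusted p = 0.0062), and under no other alternative did any of the 5 pass. This comparison uses the same Control arrays as the one that picked the genes and is not independent of it. None of the 95 related genes passed with bare particles either.

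On each conjugate array by itself the 5 genes kept different places. Measured against the Control mean, ZNF566-AS1 ranked 1, 1 and 5 among 18132 genes on GNPs-HDM2 arrays 1, 2 and 3, and LINC02447 ranked 3, 2 and 9. PCP4 ranked 5, 47 and 2, UGT2B7 ranked 11, 7 and 38, and ZBTB7C-AS2 ranked 12, 3 and 233. ZBTB7C-AS2 thus had the widest range of ranks of the 5, at 2.62, 3.26 and 1.02 above the Control mean. In log2 values ZNF566-AS1 was spread more widely, at 5.74, 6.18 and 2.66. The spread over all genes was narrower on GNPs-HDM2 array 3 (SD 0.556) than on arrays 1 and 2 (1.07 and 1.27). In units of that spread ZNF566-AS1 lay 5.38, 4.86 and 4.79 SDs above the Control mean on arrays 1, 2 and 3, so its lower value on array 3 was in proportion to that array. PCP4 lay 2.93, 1.82 and 6.54 SDs above, and was the only one of the 5 whose log2 difference was largest on array 3.

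**Figure D2:**
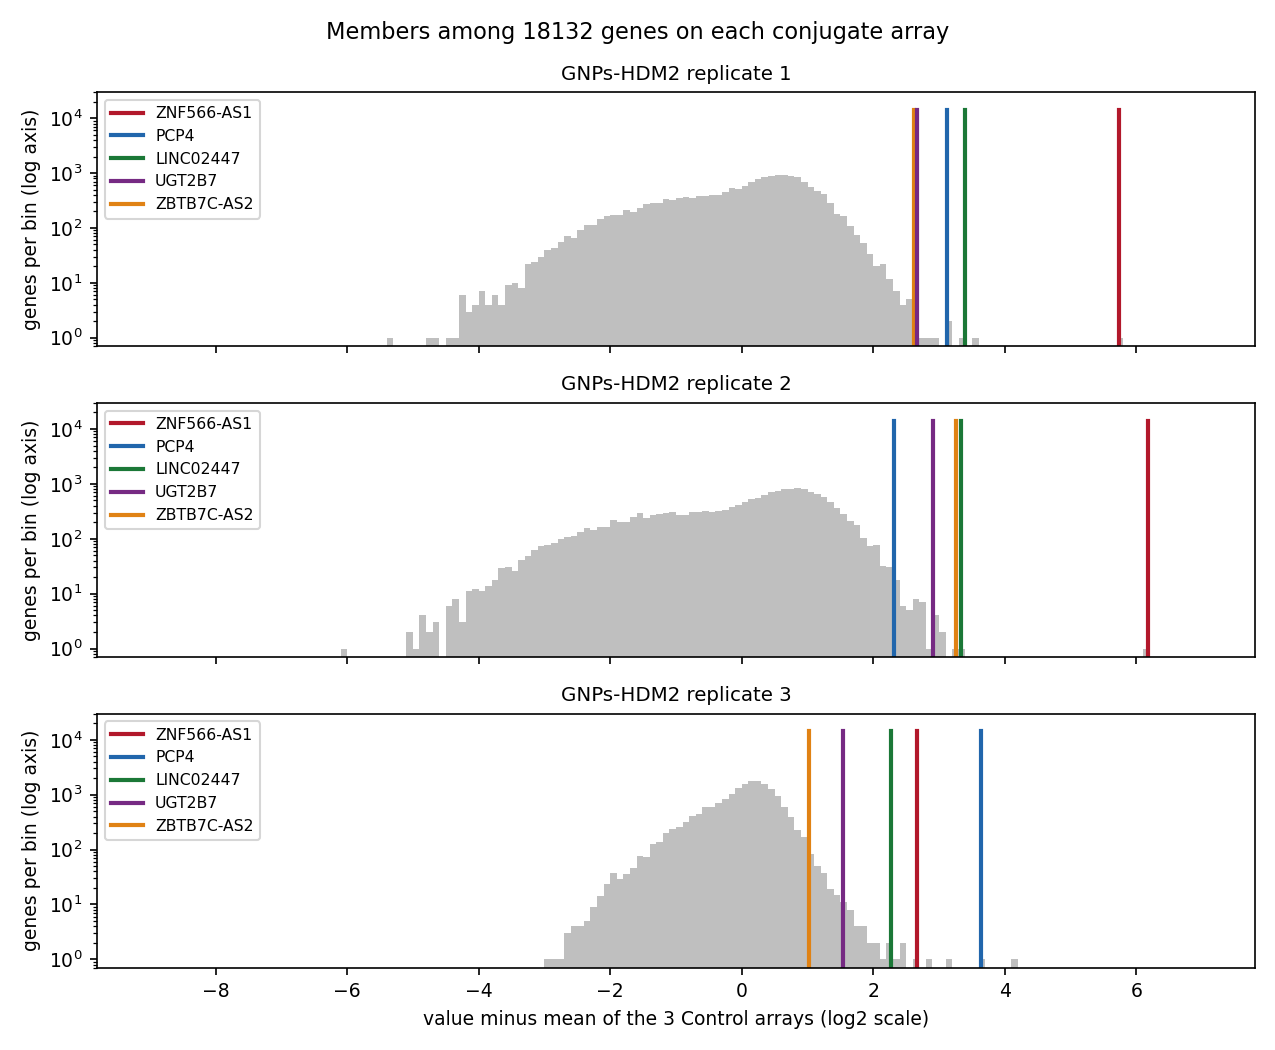
Counts of genes (log axis) by their value minus the mean of the 3 Control arrays (log2 scale) on each GNPs-HDM2 array, with coloured lines at the picked genes. ZNF566-AS1 lies far to the right of the grey distribution on arrays 1 and 2, and on the narrower array 3 PCP4 lies farthest right of the 5, at 3.63.

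The rank of each rise is given against both other groups, which share the conjugate arrays. Against Control, the rank over all genes was 1 for ZNF566-AS1, 3 for PCP4, 4 for LINC02447, 7 for UGT2B7 and 8 for ZBTB7C-AS2. Against GNPs, the ranks were 2, 7, 6, 25 and 8 in the same order. After centring within level classes they were 1, 6, 7, 113 and 47, with differences of 4.75, 2.92, 2.89, 1.88 and 2.19. UGT2B7, the only dim one, moved the most. PCP4 and LINC02447 (3.02 and 3.0, with errors of 0.50 and 0.31) had no order beyond their spread, nor had UGT2B7 and ZBTB7C-AS2 (2.37 and 2.30, with errors of 0.31 and 0.45). At the edge of the choice, ZBTB7C-AS2 (2.3001) stood just inside and the pseudogene POM121L8P (2.298) just outside. Between the 5 genes in that order lay the heat shock genes HSPA6 (3.47) and SERPINH1 (2.67) and the heme oxygenase gene HMOX1 (2.47), which were set aside.

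**Figure D3:**
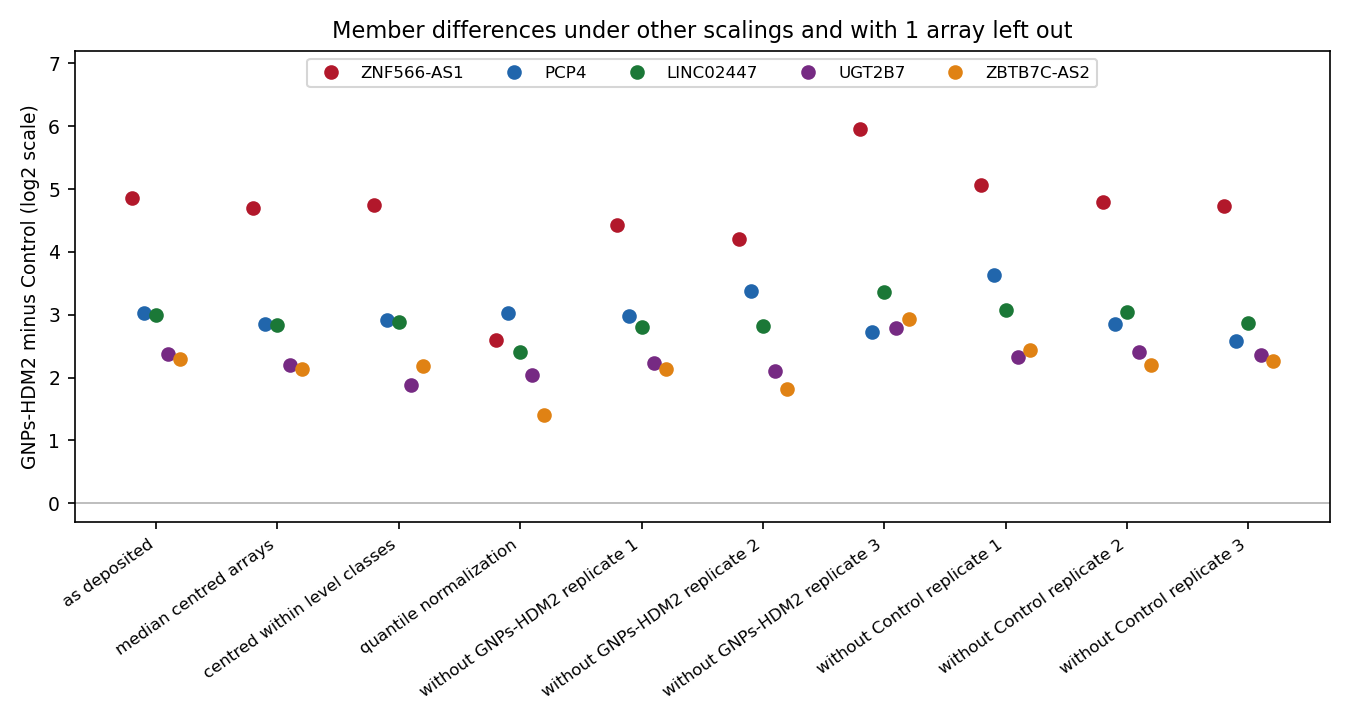
Difference between GNPs-HDM2 and Control arrays (log2 scale) for the 5 genes as deposited, under 3 other scalings and with each GNPs-HDM2 or Control array left out. ZNF566-AS1 moves the most, between 2.60 after quantile normalization and 5.96 without GNPs-HDM2 replicate 3, and no value of the 5 genes falls below 1.40.

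None of the genes lying next to the 5 had a difference as large as theirs. That follows in large part from picking the 5 as large rises. The 3 nearest measured genes on each side gave 30 neighbours, whose differences ran from -1.90 to 1.41. Of these, 12 rose and 8 fell, against 33.1% of all genes that rose and 25.1% that fell. No more than 7 of these 20 calls held in each of the fits that left out 1 array, those of ZFP14, PLAC4, PSAPL1, UGT2B28, ZBTB7C, SMAD2 and SORCS2. Around PCP4, 4 of 6 rose and none fell, with the cell adhesion gene DSCAM at 0.83, PLAC4 at 0.74 and IGSF5, which did not pass, at 0.33. DSCAM lost its call without Control replicate 2 or 3 (adjusted p up to 0.0625), and none of these calls around PCP4 held after centring within level classes. Around LINC02447, PSAPL1, a saposin-like gene, rose by 1.02 (SE 0.18, limma adjusted p = 0.0030) but did not pass after quantile normalization, while TADA2B, a subunit of histone acetyltransferase complexes, stood at -0.01 and SORCS2, a sorting receptor gene, fell by 0.49. SORCS2 turned to 0.20 after centring within level classes. Around ZBTB7C-AS2, SMAD2, a carrier of transforming growth factor signals to the nucleus, fell by 1.90 (SE 0.28, limma adjusted p = 0.0018), and SMAD7, an inhibitor of the same signals, stood at 0.05.

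**Figure D4:**
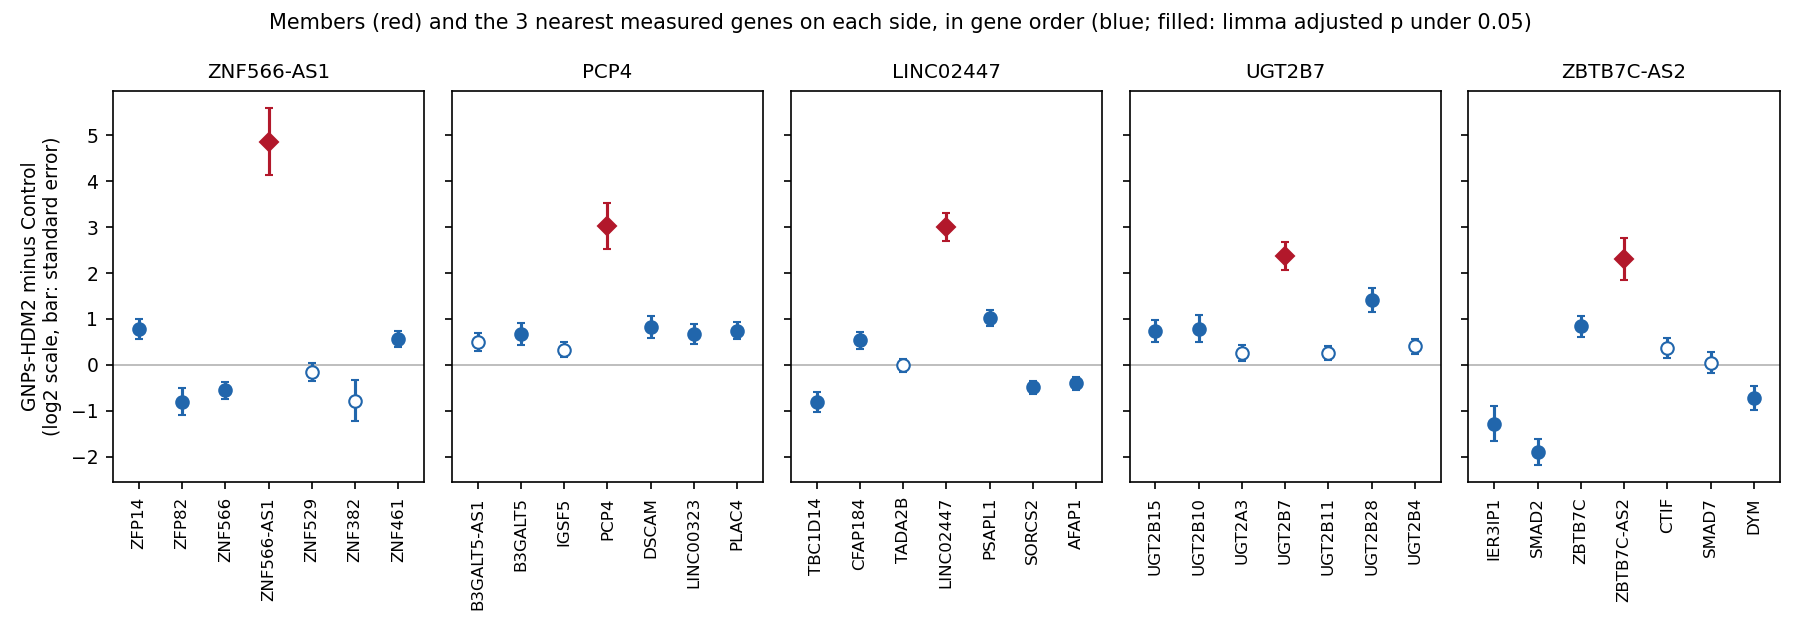
Difference between GNPs-HDM2 and Control arrays (log2 scale, bars are standard errors, n = 3 arrays each) for each picked gene in red and the 3 nearest measured genes on each side in blue, in gene order, filled where the limma adjusted p was under 0.05. Each red point lies above its 6 neighbours, whose highest value is 1.41 for UGT2B28 and whose lowest is -1.90 for SMAD2. That order follows in large part from picking the red genes as large rises.

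Other noncoding genes mostly leaned the same way with the conjugate at a smaller size. The smaller size follows in large part from the choice. LINC02447, ZNF566-AS1 and ZBTB7C-AS2 were picked as large rises and are left out of the counts. Of 149 genes named LINC with 5 digits, other than LINC02447, 87 rose and 3 fell, where 33.1% of all genes rose and 25.1% fell. Their median was 0.70 and their highest value 1.90. Of 108 genes with an antisense symbol, other than ZNF566-AS1 and ZBTB7C-AS2, 58 rose and 2 fell, with a median of 0.69 and a highest value of 1.77. The direction held within the classes of level, but among dim probe sets it was nearer to that of the class. Of 122 dim LINC probe sets 49 rose and none fell (median 0.64). Of 61 dim antisense probe sets 27 rose and none fell (median 0.65). Of all dim probe sets 33.6% rose and 0.81% fell (median 0.50). Among middle probe sets, the class of LINC02447, 43 of 66 LINC probe sets rose and 3 fell (median 0.78), and 44 of 88 antisense probe sets rose and 1 fell (median 0.73), against 26.4% of all middle probe sets that rose and 24.1% that fell. The medians of both families stayed above 0 under each of the 3 other scalings, at 0.53, 0.36 and 0.29 for LINC genes and 0.52, 0.44 and 0.25 for antisense genes under median centring, level class centring and quantile normalization. After quantile normalization 9 LINC genes rose and 1 fell, and 6 antisense genes rose and none fell. No gene of either family passed with bare particles.

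Over the 9 arrays the genes most like each of the 5 were those that also separated the conjugate arrays. The points share the arrays and their spread, so the coefficients are descriptions. By Pearson's r, the 3 most like ZNF566-AS1 were PPFIA2, CXCL2 and CMKLR1, and 3029 genes had an r above 0.95 with it. The 3 most like ZBTB7C-AS2 were NTNG1, ROBO4 and LYPD1, with 3271 genes above 0.95. CYP24A1, which breaks down vitamin D, was among the 3 most like both LINC02447 (r = 0.991, beside RNF135 and TMIGD1) and UGT2B7 (r = 0.993, beside H2AC1 and WDR25). PCP4 stood apart, with PRB4 (0.989), PLAUR (0.980) and ANKRD30A (0.977) as its nearest and no more than 24 genes above 0.95. Between the 5 genes, r ran from 0.77, for PCP4 and ZBTB7C-AS2, to 0.99, for ZNF566-AS1 and ZBTB7C-AS2.

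In all, 95 related genes were measured out of 123 on the 8 lists. Of the 95, 37 rose and 21 fell with the conjugate, against 6006 and 4560 of all 18132 genes. The count of rises was 19 without Control replicate 3, 22 without Control replicate 2, 23 and 24 without GNPs-HDM2 replicates 1 and 2, and 46 without GNPs-HDM2 replicate 3. The split moved with the scaling. It was 24 higher and 23 lower after median centring, 21 and 22 after centring within level classes, and 4 and 11 after quantile normalization. Over all genes the corresponding counts were 4154 and 5054, 4279 and 4015, and 572 and 1355. The median over all genes was 0.25 as deposited, and 0.08, 0.07 and 0.10 under the same 3 scalings.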

How the data were processed

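The deposited table held log2 values of 49395 probe sets on 9 arrays, each relative to its probe set's own baseline. The base, that baseline and the tool by which the authors summarized the probes are not given in the sources used here. Base 2 was taken from the range of the values, and fold changes rest on it. Labels' protocols name biotin-labelled RNA made from total RNA. Left out were 102 array controls. By GEO's platform annotation, 44988 probe sets had 1 gene symbol, 1832 several and 2473 none, and only the first kind was named. A gene's value averaged its probe sets of 1 symbol. Positions and promoters came from RefSeq tables of GRCh38.p14, in which 3 of the 5 genes have a promoter entry.

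All 9 arrays entered 1 fit with 3 groups in limma 3.58.1 (R 4.3.3, lmFit and eBayes, 2-sided), adjusted by Benjamini-Hochberg over all genes at 0.05. Errors are standard errors of that fit unless SD is written. Their spread is shared by the 3 groups, so they understate that of a group that varies more. Probe sets could be classed by baseline level (2 to 4 dim, 4 to 8 middle, 8 to 16 bright, 427 not classed). The fit and the classes were tested on simulated data. Members, lists and tests were chosen with earlier results of these data known. Named were the 5 genes, their partner and UGT2B genes, 3 neighbours a side, up to 3 rises and 3 falls a list by adjusted p, and the 3 genes of highest Pearson r. Of the neighbours and falls, examples are printed.

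Alternatives were quantile normalization, median centring, level class centring, the replicate number as a block, 2 groups only, trend and robust settings, array weights by group, the median of probe sets, single probe sets, dim genes left out, and each array left out. Replicate numbers of the labels name no shared culture. Arrays of the same number had deviations correlated at -0.06 to 0.29 over 9 pairs, 4 of them over 0.1.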

Additional observations from a re-analysis of the deposited data

How the results depend on the processing

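The 5 genes stayed above both other groups under every alternative run (1.40 to 5.96 above Control, 1.43 to 6.58 above GNPs). ZNF566-AS1 moved to 2.60 above Control after quantile normalization, and UGT2B7 could not be fitted without dim genes. With bare particles 0 of the 5 passed, also in each fit without 1 array, and 2 passed after quantile normalization. Of the 95 related genes, 37 rose. That count was 4 after quantile normalization, 24 after median centring, 21 within level classes, 18 with 2 groups only, 19 with array weights by group and 19 to 46 without 1 array. The 21 falls became 11 after quantile normalization and 16 to 27 without 1 array. Of 52 named related genes past the threshold, 31 kept their call without each array and 21 lost it at least once.

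With the replicate block, 35 rose and 22 fell. Of the named genes, CFAP184 and AFAP1 lost their calls in that fit and no other call changed. With 2 groups only and the replicate block, an alternative chosen after seeing the data, 19 rose and 18 fell, and no gene of the 5 passed with bare particles in either fit. Between GNPs-HDM2 and Control the 3 same-number pairs correlated at 0.11 to 0.29, a hint from the data and not from the design.

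Directions turned as follows, and the cause was not tested. With bare particles, PCP4 went to -0.48 after quantile normalization and ran from -0.38 to 0.66 without 1 array, and LINC02447 ran from -0.17 to 0.17. Within level classes, GUSB went to 0.26, UGT2B11 to -0.23, UGT2B4 to -0.0796, ZFP82 to 0.28, IGSF5 to -0.15, SORCS2 to 0.20, UGT2A3 to -0.22 and SMAD7 to -0.18. After quantile normalization, ZNF529 went to 0.15, ZNF382 to 0.0902, SMAD7 to -0.0298 and DYM to 0.0615. ZNF529 was 0.45 by the median of its probe sets and SMAD7 was -0.12 after median centring. Without 1 array, ZNF529 ran from -0.316 to 0.0408, TADA2B from -0.0508 to 0.0466 and SMAD7 from -0.26 to 0.23. Values without a level do not show signal over background, so what is lost among dim probe sets cannot be given.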
